A study of Mus musculus with 4 samples.

Results

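The tubulin tyrosine ligase-like (Ttll) enzymes were examined in retinal RNA of mouse embryos at embryonic day 19. The family was taken as 10 genes by symbol, Ttll1, Ttll3, Ttll4, Ttll5, Ttll6, Ttll7, Ttll9, Ttll10, Ttll11 and Ttll12. Of these, 8 were found among the 18471 genes read, and all 8 passed the filter on low counts that left 17300 genes for testing. Ttll6 and Ttll10 were not analysed here. The groups were 2 libraries labelled wild-type and 2 labelled Foxn3KO (genotype Foxn3-/-, strain C57BL/6NJ-Foxn3em1(IMPC)Bay/Mmnc), described as lacking exon 3 of Foxn3, a gene for a forkhead transcription factor. Each library was made from the retina of an individual embryo, and the study concerns a Foxn3 network that controls primary cilia.

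Tubulin carries an acidic tail that sits on the outside of the microtubule, where motors and severing enzymes read it. Glutamylases of the Ttll family begin or lengthen glutamate chains on that tail, glycylases do the same with glycine, and deglutamylases of the cytosolic carboxypeptidase family remove the glutamates. Both modifications are dense on the axonemes of cilia, glutamylation is also dense in neurons, and defects of either are known to damage photoreceptors, whose outer segment is a modified cilium. The members were sorted by where they are best known. Ttll3 (a glycylase that begins chains) and Ttll9 (a glutamylase of axonemes) were called ciliary, together with Ttll6 and Ttll10. Ttll4, Ttll7 and Ttll11 were called neuronal, a class that takes in members known mainly from neuronal or other cytoplasmic microtubules. Ttll1 and Ttll5 serve both, and Ttll12, with no established glutamylase or glycylase activity, was set apart.

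Total counts ranged from 22543531 to 29360129 per library. Foxn3 itself had 97.6 and 99.8 CPM (counts scaled to library size with TMM factors) in the wild-type-labelled libraries and 143.6 and 143.7 CPM in the Foxn3KO-labelled libraries. The targeted gene was therefore higher where its deletion is labelled, and since gene counts do not resolve exon 3, every direction below rests on the labels. Wild-type replicate 1 also stands apart in sex, with 83073 counts of Xist against 9 to 19 in the other 3 libraries, so values without it are given where they change a call.

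Of the 8 members, 6 rose in the Foxn3KO-labelled libraries and 0 fell at an adjusted p under 0.05 (edgeR, Benjamini-Hochberg). Among all 17300 genes 21.9% were called, 12.3% higher and 9.66% lower. DESeq2 called the same 6 members higher, and 10.1% of the genes to which it gave an adjusted p. The other 2 members, Ttll7 and Ttll11, did not pass, and the lowest log2 fold change of any member was 0.14. CPM of the groups did not overlap, with the Foxn3KO-labelled libraries above, for 7 of the 8 members, against 29.9% of all tested genes. The median log2 fold change was 0.36 over the members and -0.00470 over all tested genes. The ciliary members spanned 1.95 to 3.72, the members used in both settings 0.34 to 0.66 and the neuronal members 0.14 to 0.38. With this sorting the ranges of the ciliary and neuronal classes did not meet. Counted as ciliary, Ttll1 (0.34) would lie within the neuronal range. With 2 ciliary and 3 neuronal genes the classes are described and not tested. Lens genes moved with the genotype too: all 5 tested of 6 listed were called higher, and they summed to 3.11 and 46.8 CPM in the wild-type-labelled libraries and 179 and 174 CPM in the Foxn3KO-labelled ones. The part of lens tissue in the Ttll results was not tested.

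**Figure D1:**
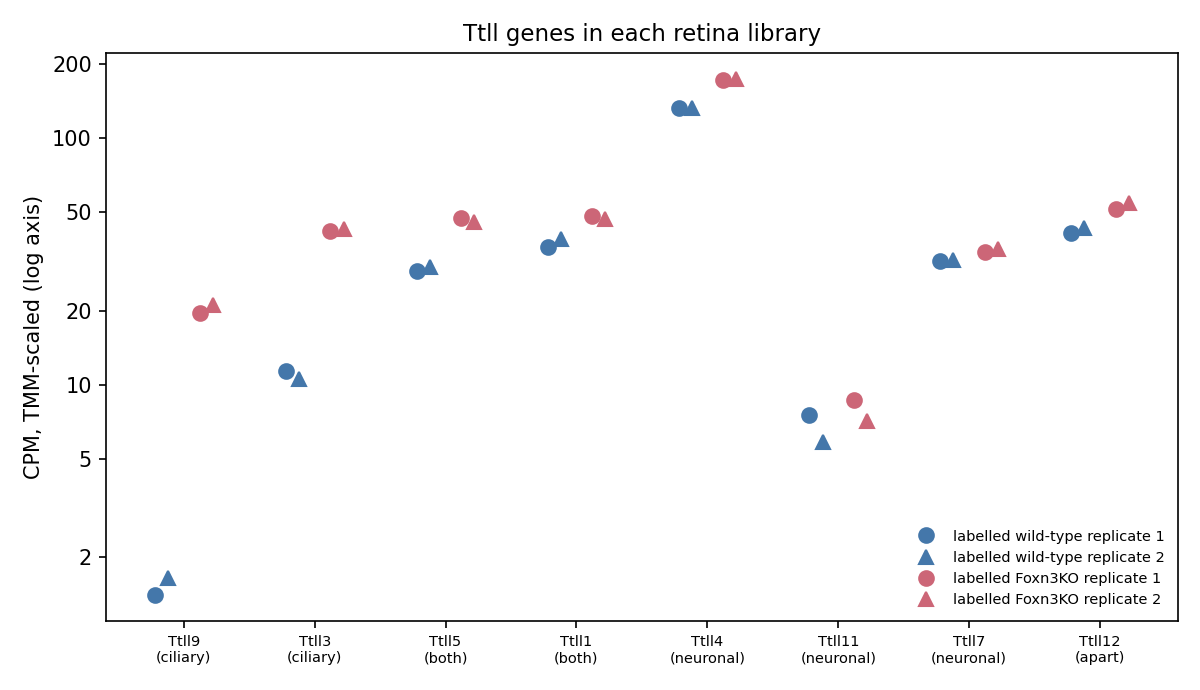
CPM (TMM-scaled, log axis) of 8 Ttll genes in each of the 4 libraries, with circles for replicate 1 and triangles for replicate 2, blue for the wild-type-labelled libraries and red for the Foxn3KO-labelled ones, and the class of each gene below its name. Ttll9 goes from 1.41 and 1.66 to 19.6 and 21.1 CPM, while the Ttll11 points of the groups overlap.

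Ttll9, a glutamylase of ciliary and sperm axonemes, showed the largest rise of the 8 members. It had 35 and 45 counts in the wild-type-labelled libraries (exact 95% Poisson intervals 24.4 to 48.7 and 32.8 to 60.2, counting error only) and 571 and 472 in the Foxn3KO-labelled libraries. These are 1.41 and 1.66 CPM against 19.6 and 21.1 CPM, so both libraries labelled Foxn3KO lay far above both labelled wild-type. The means were 1.53 ± 0.173 and 20.3 ± 1.04 CPM (SD, n = 2 each), a 13.2-fold difference. The log2 fold change was 3.72 (SE 0.14, edgeR adjusted p = 8.44e-13), which ranked 70 among the 17300 genes tested. The 2 nearest libraries of opposite groups were 3.57 apart on the log2 CPM scale, and the wild-type replicates differed from each other by 0.23 on that scale. Per length, Ttll9 moved from the 13.3 to the 51.98 percentile of FPKM (fragments scaled by gene length and library size, as deposited) among tested genes.

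Ttll3, which places the first glycine on axonemal tubulin, rose next most. It had 281 and 287 counts in the wild-type-labelled libraries and 1225 and 956 in the Foxn3KO-labelled ones, which are 11.3 and 10.6 against 42.1 and 42.7 CPM. The replicates of each group lay close together, and the groups were far apart. The log2 fold change was 1.95 (SE 0.078, edgeR adjusted p = 1.80e-12), or 3.87-fold, with a rank of 219. In the GENCODE M21 annotation Ttll3 overlaps the end of Arpc4, a subunit of the actin-nucleating Arp2/3 complex, on the same strand, so some reads could be assigned to either. Arpc4 had 2071 and 2245 counts against 2647 and 2034, a log2 fold change of 0.13 (edgeR adjusted p = 0.0691), and did not pass.

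The sequences upstream of Ttll9 and Ttll3 are shown because these genes moved most, and that of Ttll7 because it is a neuronal member that did not pass. They come from RefSeq on build GRCm38.p6, which is not the mm39 build of the submitters' processing notes, and run 5′ to 3′ over the 250 bases before an annotated gene start, all on the plus strand. Capitals mark matches to any of 5 motifs, searched on both strands: GTTGCC (an arm of the X-box bound by RFX factors), the whole X-box (which can overlap that arm), GTAAACA and ATAAACA (forkhead sites) and GACGC (an alternate site of FOXN factors).
Ttll9, chr2:152962235-152962484: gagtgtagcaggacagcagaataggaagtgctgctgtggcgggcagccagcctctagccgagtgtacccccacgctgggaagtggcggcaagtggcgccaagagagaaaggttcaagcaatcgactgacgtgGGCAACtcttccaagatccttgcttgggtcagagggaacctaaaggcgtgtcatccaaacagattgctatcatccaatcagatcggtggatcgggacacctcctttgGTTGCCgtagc
Ttll3, upstream start, chr6:113389010-113389259: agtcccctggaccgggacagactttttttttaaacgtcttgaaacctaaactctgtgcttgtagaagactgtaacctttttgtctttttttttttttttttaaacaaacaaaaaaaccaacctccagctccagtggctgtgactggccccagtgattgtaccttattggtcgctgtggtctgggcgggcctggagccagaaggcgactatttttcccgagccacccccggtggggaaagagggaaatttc
Ttll3, downstream start, chr6:113392213-113392462: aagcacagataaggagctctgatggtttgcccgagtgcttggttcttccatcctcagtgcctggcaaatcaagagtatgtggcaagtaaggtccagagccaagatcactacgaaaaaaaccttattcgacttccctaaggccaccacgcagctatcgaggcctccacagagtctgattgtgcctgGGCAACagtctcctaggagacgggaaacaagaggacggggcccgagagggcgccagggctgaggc
Ttll7, chr3:146852117-146852366: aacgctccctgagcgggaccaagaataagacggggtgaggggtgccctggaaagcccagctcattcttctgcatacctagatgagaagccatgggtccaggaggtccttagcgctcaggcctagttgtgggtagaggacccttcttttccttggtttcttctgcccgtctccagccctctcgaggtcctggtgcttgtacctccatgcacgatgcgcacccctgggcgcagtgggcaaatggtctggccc

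Ttll9 held 2 matches of GTTGCC, whose first bases lie 118 and 11 bases before the gene start. Ttll3 held 1 match, 65 bases before its downstream start, and none before its upstream start. RefSeq gave windows for 6 of the 8 members with counts (7 windows, since Ttll3 has 2 starts), and 3 of these 6 held GTTGCC: Ttll9, Ttll3 and Ttll5, where it begins 230 bases before the start. Over 32851 promoter windows of the same length 10.4% held GTTGCC. That share is per window, whereas the members are counted per gene, with 2 windows for Ttll3. The bases checked just after the Ttll4 start were in no GENCODE M21 transcript of that gene. The FOXN letters GACGC were found in Ttll5 and Ttll12, and in 22.6% of all windows. The letters of the whole X-box, GTAAACA and ATAAACA were in none of the 7 windows, against 1.80%, 3.17% and 4.16% of all windows. The whole X-box was searched as 14 letters with a fixed spacing between its arms. A copy starting at the Ttll9 match 11 bases before the gene start would run past the window. The Ttll9 letters left in the window from that match fit the start of the X-box pattern. The search stopped at the gene start by choice, so whether a whole X-box lies there was not tested. The matches found are descriptions of letters in a window and were not tested against the expression values. Factors of the families whose sites were searched were read too. Foxj1 is a forkhead factor, whose searched letters were in none of the 7 windows, and a master regulator of motile cilia. It had 7.70 and 8.32 CPM in the wild-type-labelled libraries and 177.0 and 174.8 CPM in the Foxn3KO-labelled libraries. Rfx2, a ciliary RFX factor, had 20.2 and 23.7 against 56.97 and 60.2 CPM, and Rfx3 76.1 and 74.2 against 96.7 and 101.6 CPM.

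Of the members that serve both cilia and neurons, Ttll5 and Ttll1 each rose. Ttll5 begins glutamate chains, also modifies the photoreceptor cilium protein RPGR, and is mutated in a human cone dystrophy. It had 716 and 814 counts in the wild-type-labelled libraries and 1377 and 1019 in the Foxn3KO-labelled libraries, or 28.9 and 29.96 against 47.3 and 45.5 CPM. The groups did not overlap, and the rise was 1.58-fold (log2 fold change 0.66, SE 0.064, edgeR adjusted p = 5.01e-07). Tgfb3, which overlaps Ttll5 on the opposite strand, had a log2 fold change of 0.08 (edgeR adjusted p = 0.464). GENCODE M21 also lists antisense genes over Ttll5, Ttll9 and Ttll11, which were not analysed here. The kit keeps strand, but whether the counting used it is not given in the sources used here.

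Ttll1, the catalytic subunit of the brain polyglutamylase complex that is also needed in airway and sperm axonemes, rose 1.26-fold. Its counts were 901 and 1056 in the wild-type-labelled libraries and 1401 and 1048 in the Foxn3KO-labelled libraries, which are 36.3 and 38.9 against 48.1 and 46.8 CPM. The groups were separate by 0.27 on the log2 CPM scale, and the wild-type replicates differed by 0.10. The log2 fold change was 0.34 (SE 0.063, edgeR adjusted p = 0.000759).

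**Figure D2:**
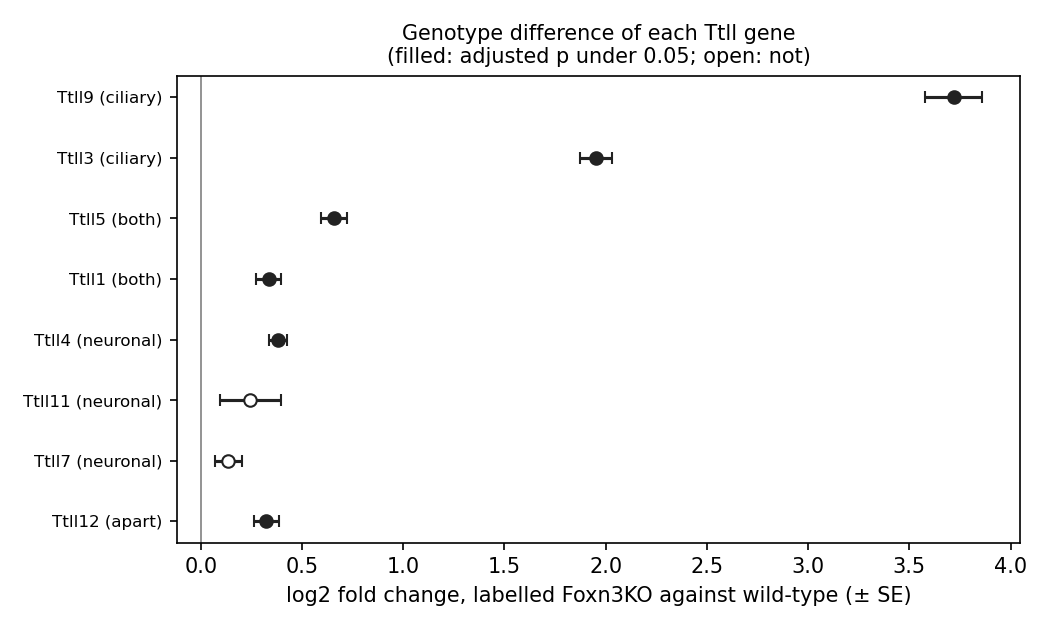
Log2 fold change (libraries labelled Foxn3KO against wild-type, from edgeR) of 8 Ttll genes with its standard error, n = 2 libraries a group, ordered by class. The ciliary genes lie at 3.72 and 1.95, the other 6 between 0.14 and 0.66, and the open points of Ttll11 and Ttll7 did not pass an adjusted p of 0.05.

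Of the 3 neuronal members 1 rose. Ttll4, which begins short glutamate chains on tubulin and on other proteins, had 132.8 and 132.6 CPM in the wild-type-labelled libraries and 171.8 and 173.8 CPM in the Foxn3KO-labelled libraries. Both groups were tight and did not overlap, and the rise of 1.30-fold passed (log2 fold change 0.38, SE 0.044, edgeR adjusted p = 4.21e-06). Ttll7, the chief glutamylase of beta-tubulin in neurites, had 31.7 and 31.98 CPM against 34.5 and 35.5 CPM. Although its groups did not overlap, its log2 fold change of 0.14 (SE 0.066) did not pass (edgeR adjusted p = 0.158). Ttll11, which lengthens glutamate chains, had 7.58 and 5.89 CPM against 8.69 and 7.14 CPM, so that the groups overlapped and the wild-type replicates differed by 0.36 on the log2 scale. Its log2 fold change was 0.24 (SE 0.152, edgeR adjusted p = 0.284). Without wild-type replicate 1 it was 0.45 and passed, in a fit that called more of all genes than the fit of all libraries.

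Ttll12, the member set apart, also rose. It had 41.4 and 43.3 CPM in the wild-type-labelled libraries and 51.6 and 54.4 CPM in the Foxn3KO-labelled libraries, with no overlap. The log2 fold change was 0.32 (SE 0.06, edgeR adjusted p = 0.000733), or 1.25-fold. In the authors' deposited table the same 6 members had an adjusted p under 0.05, and Ttll7 (0.418) and Ttll11 (0.547) did not.

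Levels of different members were compared per length, on the deposited FPKM. In the wild-type-labelled libraries Ttll1 was the most abundant (12.9 ± 0.629 FPKM, SD, n = 2), followed by Ttll4 (11.5), Ttll12 (10.4), Ttll7 (3.83), Ttll3 (2.16), Ttll5 (1.85), Ttll11 (1.67) and Ttll9 (0.438). Ttll5 and Ttll11 overlapped between libraries (1.81 and 1.88 against 1.87 and 1.46 FPKM), and no other neighbours in this order did. In the Foxn3KO-labelled libraries Ttll1 (16.3), Ttll4 (14.95) and Ttll12 (13.1 FPKM) kept the first 3 places. Ttll3 (8.38 FPKM) moved from place 5 to 4 and Ttll9 (5.81 FPKM) from 8 to 5, both above Ttll7 (4.22 FPKM).

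The family sum was 44.2 and 45.2 FPKM in the wild-type-labelled libraries and 67.3 and 67.9 FPKM in the Foxn3KO-labelled libraries, 1.49 to 1.54 times higher over the pairs of libraries. Ttll3 and Ttll9 supplied 27.2% and 23.5% of this summed rise, Ttll4 15.3%, Ttll1 14.8% and Ttll12 11.6%. The share of the ciliary members in the family sum was 5.97% and 5.67% in the wild-type-labelled libraries and 20.7% and 21.3% in the Foxn3KO-labelled libraries. The share of the neuronal members was 38.8% and 37.1% against 31.5% and 31.1%, although their summed FPKM was higher (17.2 and 16.8 against 21.2 and 21.1). Glycylase transcripts of this family are represented here by Ttll3 alone, at 5.06% and 4.62% against 12.4% and 12.4%. In bulk retina, more cells that express a gene and more RNA per cell cannot be told apart.

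**Figure D3:**
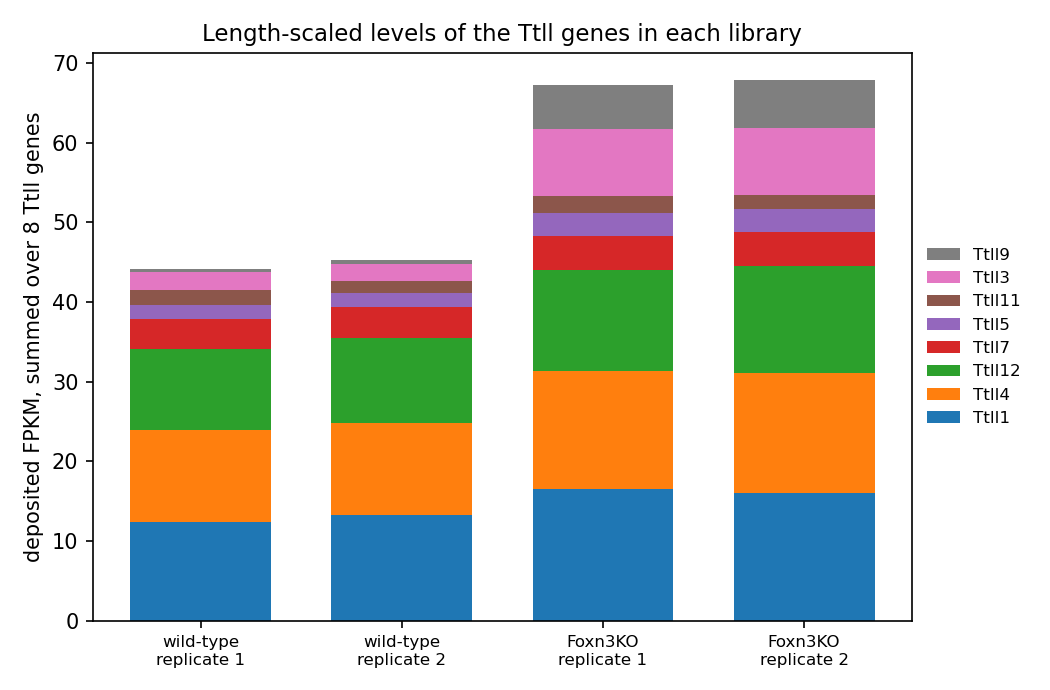
Deposited FPKM of 8 Ttll genes stacked for each of the 4 libraries (bars start at 0, one colour a gene). The stacks sum to 44.2 and 45.2 FPKM in the wild-type-labelled libraries and to 67.3 and 67.9 in the Foxn3KO-labelled ones, and the top blocks of Ttll3 and Ttll9 grow most.

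The wider machinery of tubulin modification was followed in a list of 29 partner genes, of which 26 were tested. Of these, 7 rose and 2 fell (edgeR, adjusted p under 0.05), with a median log2 fold change of 0.05, against 12.3% higher and 9.66% lower among all tested genes. Agbl1, Ttll2 and Ttll8 were not analysed here.

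In the Ttll1 complex, 2 of 5 subunits rose. Cstpp1, which is associated with centriolar satellites, had 1448 and 1570 counts against 2631 and 2053, a log2 fold change of 0.65 (SE 0.051, edgeR adjusted p = 2.83e-08). Tpgs1, its regulatory subunit, had 22.0 ± 0.922 against 27.4 ± 0.169 CPM (SD, n = 2 each) with no overlap, and a log2 fold change of 0.32 (SE 0.076, edgeR adjusted p = 0.00559). Lrrc49 (0.10), Tpgs2 (0.03) and Nicn1 (-0.03, log2 fold changes) did not pass. Without wild-type replicate 1 Lrrc49 (0.15) passed, in a fit that called more of all genes than the fit of all libraries. Cep41, which brings Ttll6 into the cilium, had 29.9 ± 4.57 and 52.6 ± 0.319 CPM in the wild-type-labelled and Foxn3KO-labelled libraries (SD, n = 2 each), and rose by a log2 fold change of 0.82 (SE 0.081, edgeR adjusted p = 6.29e-07).

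The deglutamylases, which undo the work of the Ttll glutamylases, went in both directions. Agbl4 had 46 and 51 counts in the wild-type-labelled libraries and 230 and 177 in the Foxn3KO-labelled libraries, a log2 fold change of 2.08 (SE 0.174, edgeR adjusted p = 6.29e-08). Agbl2, found at centrioles, had 37 and 46 counts against 114 and 107, a log2 fold change of 1.43 (SE 0.221, edgeR adjusted p = 0.000117). Both were scarce in the wild-type-labelled libraries. Agtpbp1, whose loss in pcd mice kills Purkinje cells and photoreceptors, fell by 0.18 on the log2 scale (SE 0.049, edgeR adjusted p = 0.0128). The Agtpbp1 call was lost with DESeq2 (adjusted p = 0.0524). It was also lost without either library labelled Foxn3KO (log2 fold changes -0.189 and -0.171), in fits that called fewer of all genes. Agbl5 (0.11), mutated in a form of human retinitis pigmentosa, and Agbl3 (0.20, log2 fold changes) did not pass. Summed over the 6 glutamylase members with counts, FPKM were 2.14 and 2.13 times the sum over the 5 deglutamylases in the wild-type-labelled libraries and 2.79 and 2.77 times it in the Foxn3KO-labelled libraries. Agbl5 made up most of the deglutamylase sum, at 9.10 ± 0.143 and 9.86 ± 0.179 FPKM (SD, n = 2 each).

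None of the 5 genes of the tyrosination cycle (Ttl, Vash1, Vash2, Svbp and Matcap1) and none of the 3 of tubulin acetylation (Atat1, Hdac6 and Sirt2) passed with edgeR, where 0 of these 8 also had an unadjusted p under 0.05, nor with DESeq2. Their log2 fold changes ran from -0.07 to 0.06. With 1 library left out, Atat1 (-0.11) passed with edgeR without wild-type replicate 1, and Vash2 (0.16) and Matcap1 (0.13) without wild-type replicate 2. Each fit without 1 wild-type library called more of all genes than the fit of all libraries. Of 6 severing enzymes 1 rose and 1 fell, and without wild-type replicate 2 Katnal1 (0.15) also passed. Katnal2, a katanin of motile cilia and sperm, rose by a log2 fold change of 0.70 (SE 0.069, edgeR adjusted p = 5.10e-07). Fignl1 fell by 0.19 on the log2 scale (SE 0.051, edgeR adjusted p = 0.00987). The Fignl1 call was lost without either library labelled Foxn3KO (log2 fold changes -0.211 and -0.175), in fits that called fewer of all genes. Ttll13, a further family glutamylase, had 36 and 38 counts against 66 and 59. Its log2 fold change of 0.77 (SE 0.254) passed with edgeR (adjusted p = 0.0377) but not with DESeq2 (adjusted p = 0.182), limma-voom (adjusted p = 0.0507) or any library left out (edgeR adjusted p = 0.0638 to 0.195).

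**Figure D4:**
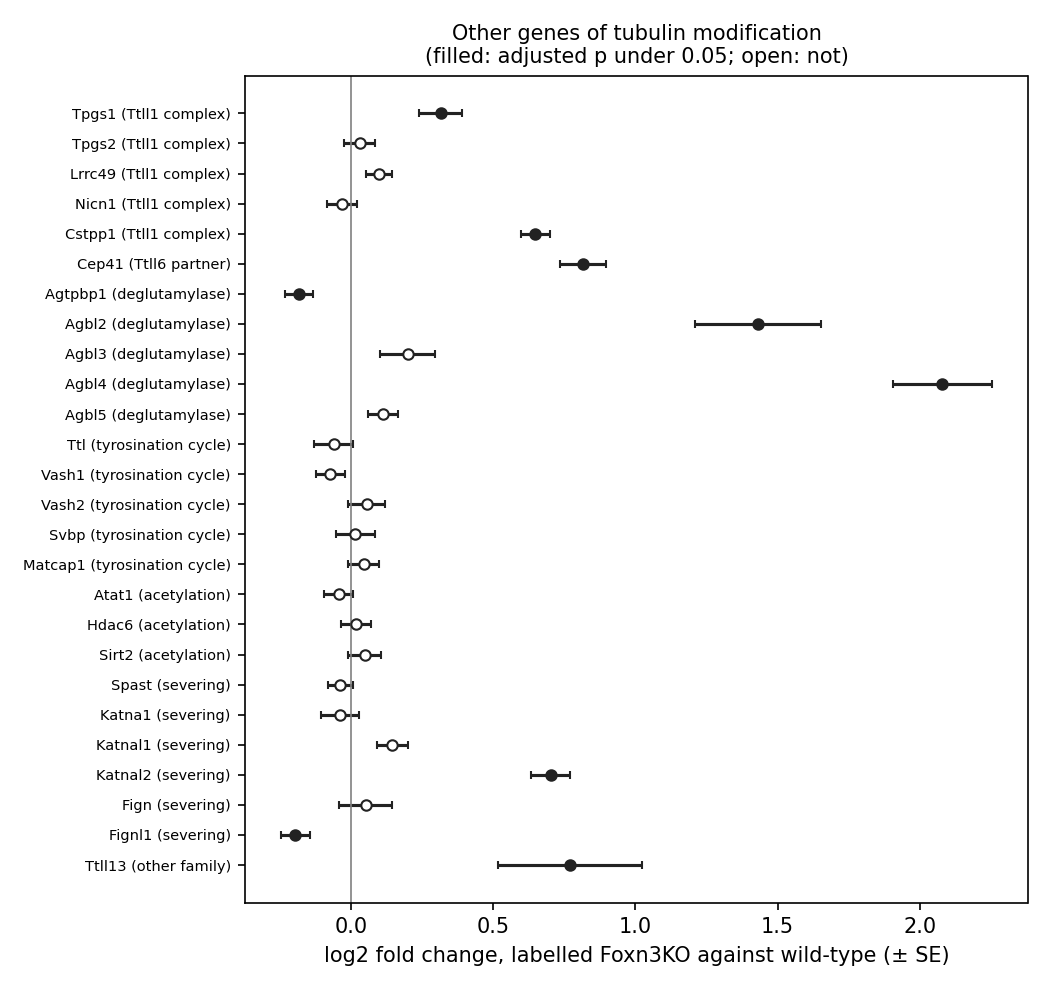
Log2 fold change (libraries labelled Foxn3KO against wild-type, from edgeR) with its standard error for 26 other genes of tubulin modification, n = 2 libraries a group, filled where the adjusted p is under 0.05. Agbl4 and Agbl2 lie farthest to the right at 2.08 and 1.43, and the tyrosination and acetylation genes lie between -0.07 and 0.06.

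Markers of the retina were present in all 4 libraries. The summed level of 10 progenitor genes was 6854 and 7187 CPM in the wild-type-labelled libraries and 6549 and 6586 CPM in the Foxn3KO-labelled libraries, with 3 members called higher and 3 lower. Retinal ganglion cell genes summed to 1033 and 1111 against 1060 and 1068 CPM (7 genes, 0 called higher and 1 lower). Amacrine and horizontal cell genes summed to 509 and 540 against 533 and 516 CPM (5 genes, 0 higher and 2 lower). Photoreceptor precursor genes, of which Nrl, Rcvrn and Sag were called higher among 6, summed to 867 and 861 against 892 and 893 CPM. Between the wild-type-labelled libraries, which differed in lens genes (3.11 and 46.8 CPM), Ttll9 was 1.41 and 1.66 CPM and Ttll3 11.3 and 10.6 CPM. Both of those lens sums lay far below the 179 and 174 CPM of the Foxn3KO-labelled libraries. Choroid plexus genes, from a tissue with motile cilia, summed to 8.75 and 11.9 against 9.27 and 9.65 CPM (5 of 6 in the table, 1 higher and 2 lower), with none of the 5 at 0 counts in any library. Pigment epithelium genes summed to 87.2 and 114 against 72.6 and 73.3 CPM (7 of 8 in the table, 0 higher and 3 lower). The 6 airway genes listed were not analysed here. The part of other cell types in the Ttll results was not tested.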

How the data were processed

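Total RNA of individual E19 retinas, 2 labelled wild-type and 2 labelled Foxn3KO, was sequenced with a strand-specific kit, per the labels' protocols. The authors deposited whole-number counts per gene and library in a single table; per the submitters' processing notes the build was mm39 and DESeq2 was used, and the aligner, counter, annotation, strand setting and use of molecular identifiers are not given in the sources used here. The authors also deposited FPKM, which per gene are the counts times a constant per library, and a mean signal equal to the mean of counts over median-of-ratios factors. Deposited log2 fold changes were shrunken, and deposited p-values and adjusted p-values were used only to list the members called there. Those deposited standard errors, a score here, were not used.

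Of 18472 rows 1 repeated identifier was dropped. Counts passed filterByExpr, were scaled with TMM and entered the quasi-likelihood F test of edgeR 4.0.16 under R 4.3.3 (legacy off, genotype only, two-sided, Benjamini-Hochberg over 17300 genes, threshold 0.05), after tests on simulated data. CPM are counts over TMM-scaled library sizes. Standard errors of edgeR log2 fold changes were derived as the absolute log2 fold change over the square root of the F statistic. A limit of 3 counts is 0.103 to 0.134 CPM. Alternatives used DESeq2 1.42.0 and limma 3.58.1, other scalings and filters, the replicate number as a block, and each library left out. The labels do not say that replicate numbers pair the libraries. Replicate differences of the groups had a correlation of -0.00825 over genes, which with 2 libraries a group cannot exclude a pairing.

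All 10 members and the partner genes were named whatever their values, except severing enzymes, named only if called, and 1 gene of the partner list, which is not reported here and is left out of its counts. Katnal1 was named after its values were seen. Members and lists were chosen with earlier results of these data known. P-values rest on the spread between the 2 embryos of a group, with each gene's variance drawn toward a trend over all tested genes. In the wild-type-labelled group that spread includes the difference in sex.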

Additional observations from a re-analysis of the deposited data

How the results depend on the processing

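Each of the 8 members kept its direction and its side of the threshold with DESeq2-type (RLE) factors, scaling by total counts, no filter, at least 10 counts a library, the earlier edgeR fit, the replicate block, DESeq2 and limma-voom (64 of 64 values). With the replicate block 4222 genes were called against 3795, and Ttll9 was at 3.72; the block changed no member's call. The labels do not say that the shared numbers are a pairing, and with 2 pairs no per-sample check was made. Leaving out a library puts 1 sample against 2 and assumes that the lone sample varies like the other group; 31 of 32 member values kept their call, and Ttll11 passed without wild-type replicate 1 (0.445, edgeR adjusted p = 0.0405; range over left-out libraries 0.0799 to 0.445). Ttll9 ranged from 3.61 to 3.84 and Ttll3 from 1.90 to 2.00.

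DESeq2 called 2437 genes, 902 of them lower, and 1 partner gene lower in place of 2; the cause was not tested. Genes called ranged from 2323 (without Foxn3KO replicate 2) and 2330 (without Foxn3KO replicate 1) to 5068 (without wild-type replicate 2), genes called lower from 836 to 2310, and partner genes called lower from 0 to 3. Counting Ttll1 and Ttll5 as ciliary gave that class a median log2 fold change of 1.31 in place of 2.84. Total count scaling gave medians of 0.338 for all members and 0.0302 for the partner list. Over left-out libraries the medians ranged from 0.142 to 0.383 for the neuronal members, 0.374 to 0.414 for all members and 0.0283 to 0.0927 for the partner list. Rescaling FPKM within each library left the ciliary share at 21.0% in the Foxn3KO libraries, as its construction requires. Of the partner values under other settings, 3 of 208 lost their call (Ttll13 at 0.781 with DESeq2 and 0.757 with limma-voom, Agtpbp1 at -0.18 with DESeq2). With a library left out, 8 of 104 lost it and 5 gained one. Depth limits the folds of genes with few wild-type counts, such as Ttll9, Agbl4 and Ttll13.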
